A study of Mus with 438 samples.

Results

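Cytosolic ribosomal protein genes are the genes for the proteins of the ribosomes that translate messages in the cytosol, as distinct from those of the mitochondria. They were taken here by symbol alone: an Rpl or Rps symbol with a number, which an a, l or x, a further number and a final l may follow, together with Rpsa, Rplp0, Rplp1 and Rplp2. The rule found 76 of the 10390 genes in the RNA table, 45 of the large subunit and 31 of the small subunit. The mouse RefSeq annotation holds 85 protein-coding genes that match the rule, and the other 9 (Rpl10l, Rpl29, Rpl32l, Rpl35a, Rpl36a, Rpl39, Rpl39l, Rpl3l and Rps27) were not analysed here. The table held 0 symbols of ribosomal protein pseudogenes. In RefSeq coordinates of GRCm38.p6 the 76 genes lay on 19 chromosomes, with 14 on chromosome 7 and 2 on the X. Their median gene interval was 3.21 kb, against 23.6 kb over all genes that could be placed.

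A cytosolic ribosome joins a small subunit, which reads the message, to a large subunit, which makes the peptide bond. Apart from a few paralogs, mammals encode each of its proteins with a single working gene, and processed pseudogene copies are scattered through the genome. The messages share a pyrimidine tract at their start, through which mTOR signalling adjusts their translation as a group. Photoreceptors keep translating through adult life, since they renew the membrane stacks of their outer segments continually.

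The RNA values came from single photoreceptors of mice labelled C57BL/6, picked one by one from superior or inferior pieces of dissociated retina by their fluorescence. Cones without the receptor, labelled Trb2Cre-KO:Ai6, were taken at 2 months (written 2m in the labels; 50 superior and 48 inferior cells). Rods carried the label tgNrl:gfp and were also 2m (29 cells, with no zone given). Control cones carried Trb2Cre-het:Ai6 at postnatal day 2 (P2; 26 superior and 30 inferior), P8 (24 and 24), P21 (24 and 24), P60 (26 and 21) and 2m (53 and 50). Both cone genotypes therefore carried the Cre allele at Thrb and the Ai6 reporter, and the control was a heterozygote, not a wild type. Control and KO cones were found by a reporter that needs Cre made at the Thrb locus, and rods by green fluorescent protein driven by Nrl, a rod transcription factor. Thrb encodes thyroid hormone receptor beta, whose beta-2 form directs cones towards M opsin.

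The labels name no animal, so the cells of a group were treated as 1 sample, whose value is its mean over cells, and the spread over cells is not an error between animals. Values are CPM, a gene's reads scaled to a fixed total per library, so they are shares of a cell's reads: a change in ribosomal messages and an opposite change in the rest of the RNA cannot be told apart. A pair of libraries of superior P60 cones, cells 03 and 14, correlated at r = 0.995 and differed by a chi-square of 1.87 per degree of freedom, against at least 148 for neighbouring pairs, and were counted as 1 cell. Libraries held 897893 to 32636811 reads, with group medians from 1.74e+06 to 3.25e+06 at P2 to P60 and from 1.09e+07 to 1.83e+07 in the 2m collections. Summed cone markers (13 of 13 listed genes in the table) averaged 1394 CPM in rods and 12170 to 113200 CPM in the cone groups, and summed rod markers (11 of 12) averaged 149900 CPM in rods and 1656 to 22890 CPM in cones. In 2 cells labelled cones there was under 1000 CPM of cone markers: superior KO cell 35 had 288 CPM and superior P2 control cell 04 had 35.1 CPM. Every other cone had at least 3649 CPM. Markers of bipolar cells (2 of 6 in the table) averaged 32.3 to 599.6 CPM and those of amacrine and ganglion cells (3 of 9) 13.6 to 177 CPM over the 13 groups.

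There were 4 stretches of consecutive cell numbers that stood apart within the 2m groups, and the labels give nothing but the number for them. After all cells were thinned to 890000 reads, superior KO cells 17 to 27 (11 cells) had reads of 46 to 67 members with a median of 59, and the other 39 superior KO cells had 21 to 63 with a median of 34. Inferior KO cells 16 to 26 (11 cells) had 48 to 69 with a median of 59, and the other 37 had 23 to 50 with a median of 36. In the 2m controls the stretches stood on the other side. Superior control cells 35 to 41 (7 cells) had 15 to 33 members with a median of 22, and the other 46 had 45 to 69 with a median of 57.5. Inferior control cells 38 to 50 (13 cells) had 13 to 26 with a median of 23, and the other 37 had 34 to 69 with a median of 57. The count of all genes detected moved with them. It ranged from 5290 to 6978 in the KO stretches and from 3792 to 6365 in the other KO cells, and from 4150 to 5120 in the control stretches and from 4668 to 8147 in the other 2m control cells. M opsin (Opn1mw), the cone pigment whose expression needs the receptor, averaged at most 8.14 CPM in either kind of KO cell and at least 1010 CPM in either kind of 2m control cell, so the stretches kept to their genotype labels in that gene. Thrb itself averaged 43.2 CPM in superior and 33.9 CPM in inferior KO cones, against 213 and 170 CPM in 2m control cones. Results that involve 2m cones are given with and without these stretches, and their part in the results was not tested beyond that.

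**Figure D1:**
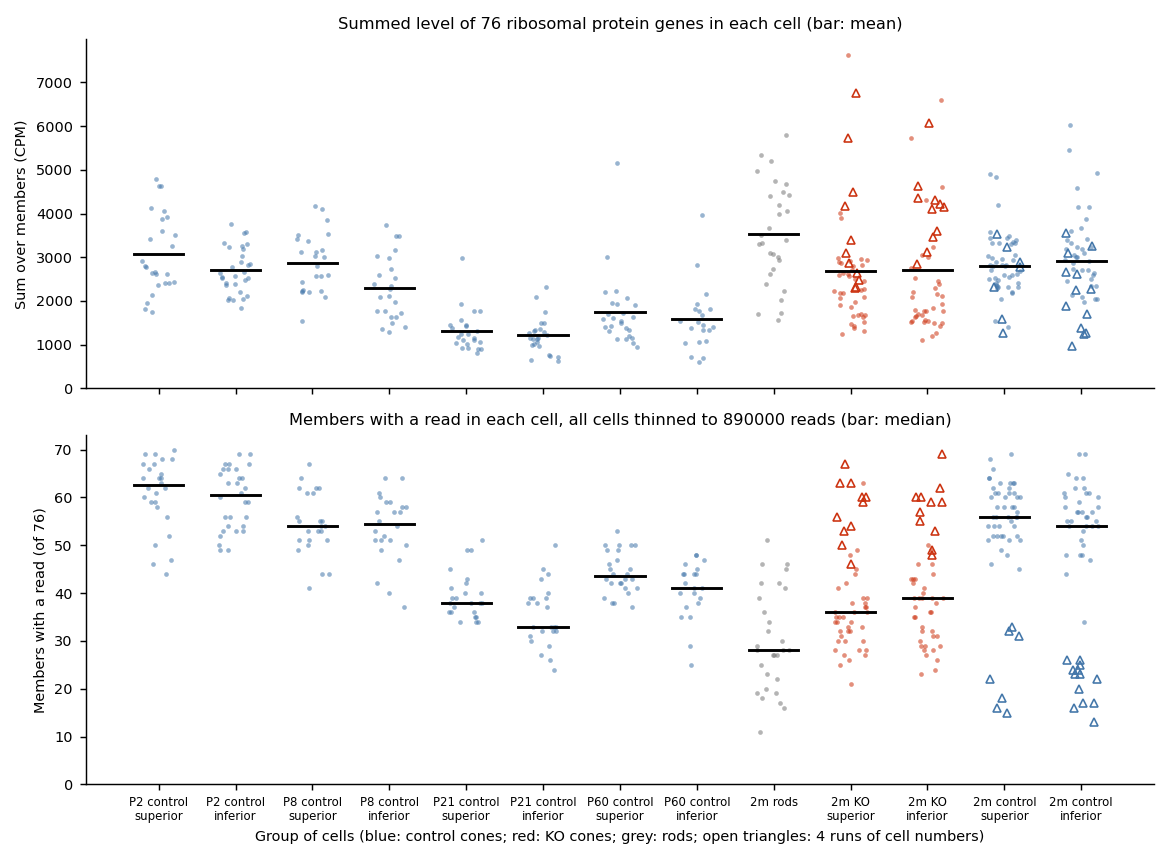
The upper plot shows, for each cell, the summed level of the 76 ribosomal protein genes in CPM, with a bar at the group mean; the lower plot shows how many of the 76 had a read after thinning to 890000 reads, with a bar at the group median. Open triangles are the 4 stretches of cell numbers that stand apart, which lie above most other KO cells and below all other 2m control cells in the lower plot.

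Together the 76 genes took a small share of each cell's reads, lowest in P21 cones and highest in rods. Their sum averaged 3081 ± 897 CPM in superior P2 cones (SD over 26 cells), with a lowest cell of 1746, a median of 2782 and a highest of 4796 CPM. In inferior P2 cones it averaged 2702 CPM (1843, 2604 and 3771 CPM for the lowest, median and highest cell). At P8 the means were 2879 CPM in superior and 2291 CPM in inferior cones, at P21 they were 1316 and 1208 CPM, and at P60 they were 1735 and 1576 CPM. In the 2m collection the control means stood at 2808 and 2915 CPM. The P21 and P60 groups were thus the lowest, and the cell ranges of P21 (805 to 2978 CPM in superior cones) overlapped those of P2 and P8 in part.

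KO cones of 2m averaged 2694 CPM in superior and 2699 CPM in inferior retina, with lowest, median and highest cells of 1247, 2500 and 7634 CPM and of 1114, 2174 and 6606 CPM. Rods averaged 3537 CPM, with cells from 1557 to 5801 CPM and a median of 3387. The 2m control cones had lowest, median and highest cells of 1274, 2794 and 4897 CPM in superior and of 961, 2893 and 6037 CPM in inferior retina. These ranges all overlapped. The KO cells of the 2 stretches averaged 3658 CPM (superior) and 4081 CPM (inferior), and the other KO cells 2422 and 2288 CPM. The control cells of the 2 stretches averaged 2518 and 2165 CPM, and the other 2m control cells 2852 and 3179 CPM. Small subunit genes summed to 0.42 to 0.52 of the large subunit genes in the 13 groups. Over the cells of a group the sums of both subunits, on a log2 scale, correlated at r = 0.14 to 0.76, and the total correlated with log2 depth at r = -0.16 to 0.54; both sums come from the same libraries.

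The number of members with a read was also counted in each cell. The median cell had a read of 66 (superior) and 64 (inferior) members at P2, 56.5 and 57 at P8, 41 and 35.5 at P21, and 45 and 44 at P60. It had 46 and 48 in 2m KO cones, 51 in rods, and 65 and 63.5 in 2m control cones, from deeper libraries. After thinning, the medians were 62.5 and 60.5 at P2, 54 and 54.5 at P8, 38 and 33 at P21, and 43.5 and 41 at P60. At 2m they were 36 and 39 in KO cones, 28 in rods, and 56 and 54 in control cones. Rods thus had the highest mean sum and, after thinning, the lowest number of members per cell; without thinning, P21, P60 and KO cones had fewer than rods. Single members were correspondingly uneven in rods: among members with at least 5 CPM the median coefficient of variation over cells was 180% in rods, 163% and 165% in KO cones, and 113% and 126% in 2m control cones, against 77.7% and 81.4% at P2. All genes at that level had a median of 355% in rods and of 185% and 180% at P2, so members varied less from cell to cell than the median gene in these groups.

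In superior against inferior cones no member passed the test. The retina of the mouse has cones rich in M opsin above and cones rich in S opsin below, and this comparison asks which genes follow that gradient. A limma model over the 10 control groups, with the collection as a block, tested 72 members and called 0, and it called 0 of all 10136 genes (0.0%, Benjamini-Hochberg adjusted p below 0.05). At an unadjusted p below 0.05 there were 0 members, against 710 genes (7.0%), and edgeR and DESeq2 on the recovered reads also called 0 members. The other members, Rpl17, Rps12 and Rps21 among them, were under the filter of 5 CPM and were not tested.

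The difference of superior minus inferior, in log2(mean CPM + 1), had a median of 0.14 over the 72 members and of 0.10 over all genes. It was positive in 55 members and negative in 17, but without the P8 collection in 44 and 28, with a median of 0.05. Rps27a, which encodes ubiquitin fused to a small subunit protein, had the lowest adjusted p of the members (limma adjusted p = 0.716) at a difference of 0.81 (SE 0.36). It averaged 40.1 and 30.6 CPM in superior and inferior cones at P2, 42.8 and 21.5 at P8, 31 and 17.1 at P21, 31.6 and 10.9 at P60, and 35 and 26.1 at 2m. Its superior mean was thus the higher of the pair in all 5 control collections, but not in KO cones, where it averaged 37.2 CPM in superior and 41.4 CPM in inferior retina.

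In all, 6 members were higher in superior cones in 5 of 5 collections (Rpl5, Rpl9, Rpl15, Rps4x, Rps13 and Rps27a; 4.96% of genes), and Rps14, a protein of the small subunit platform, in 0 of 5 (2.83% of genes). Rpl9 had the largest positive difference (1.27, SE 0.64) and Rpl27a the next (0.85, SE 0.75). Both rest on few cells: at P2 Rpl9 passed 1 CPM in 3 superior and 2 inferior cones and Rpl27a in 3 and 3. The lowest differences were those of Rpl11, which binds the 5S RNA together with Rpl5 (-1.08, SE 0.68), Rpl35 at the exit of the peptide tunnel (-0.44, SE 0.59) and Rpl22 (-0.38, SE 0.65). Within collections the member median was 0.22 at P2, 0.39 at P8, 0.14 at P21, 0.07 at P60 and -0.03 at 2m, against 0.00, 0.05, 0.10, 0.12 and 0.10 over all genes. In KO cones it was -0.03, against 0.00. Without the 2m control stretches the fit again called 0 members, with a median of 0.12.

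Over age the members as a set were lowest at P21 and P60 and higher again in the 2m collection. A limma fit of a slope per age step, with P60 and 2m on the same step, called 0 of 72 members, against 214 of 10136 genes (2.11%). At an unadjusted p below 0.05 it held 4 members (Rps19, Rpl37a and Rps9 among them, all lower with age), against 1799 genes (17.7%). The median slope was -0.18 log2 units per step over members and -0.14 over all genes, and 51 of 72 slopes were negative. Age and collection cannot be told apart, since each age was 1 collection except the adult one.

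Rps19, whose loss impairs maturation of the small subunit and causes Diamond-Blackfan anaemia in people, had the steepest negative slope (-0.95, SE 0.31, limma adjusted p = 0.153). It averaged 92.2 and 75.1 CPM in superior and inferior cones at P2, 46 and 16.7 at P8, 4.58 and 7.18 at P21, 11.4 and 15.8 at P60, and 7.34 and 8.36 at 2m. At P21, 7 of 24 superior and 8 of 24 inferior cones passed 1 CPM of Rps19 and the median cone was at 0 CPM in both zones. All 56 P2 cones passed it, with 17.9 to 260 CPM in superior and 6.93 to 274 CPM in inferior cones. Rpl37a, a zinc-binding protein of the large subunit, followed with -0.81 (SE 0.29, limma adjusted p = 0.174). It averaged 45.9 and 39.9 CPM at P2, 12 and 8.41 at P21, and 5.73 and 5.59 at 2m, and here too all P2 cones passed 1 CPM. Rpl34 had a slope of -0.61 (SE 0.33).

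The largest positive slopes were those of Rpl10 (0.98, SE 0.52), which joins the large subunit late, Rpl35 (0.79, SE 0.52) and Rpl11 (0.70, SE 0.45). Rpl10 averaged 24 and 19.7 CPM at 2m, against 0.278 and 0.0486 CPM at P2, with 26 of 53 superior and 21 of 50 inferior 2m cones over 1 CPM. With the log2 values averaged over cells in place of the mean CPM, limma called 4 members lower with age, against 699 genes in that direction (6.9%), among them Rps19 (-1.23, adjusted p = 0.0152), Rpl37a (-1.02, adjusted p = 0.0171) and Rps27l (-0.80, adjusted p = 0.0297). DESeq2 called Rpl10 alone, higher with age (2.23 per step, adjusted p = 0.00183), against 462 genes in that direction, and edgeR called 0 members. Without the 2m collection, 66 of 72 slopes were negative with a median of -0.37, and 0 members were called, against 0.0197% of genes. Without the 2m control stretches alone, 0 members were called and the median slope was -0.17.

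Steps between neighbouring ages were compared by size, since each side is 1 group per zone; a member is counted where its log2(mean CPM + 1) differed by at least 1 in the same direction in both zones. A limma fit of age and zone over the 4 groups of a step, which leaves 1 residual degree of freedom, called 0 members in P8 over P2 (2.11% of genes), P21 over P8 (0.267%), P60 over P21 (0.0%) and 2m over P60 (0.0%). At an unadjusted p below 0.05 these fits held 2, 7, 1 and 17 members, in that order, against 2018, 1058, 730 and 1291 genes. From P8 over P2, 0 of 66 members were higher (5.16% of genes) and 1 was lower (10.3% of genes). The highest ratios were those of Rpl21 (0.77), Rpl22l1 (0.66) and Rpl10a (0.62). The lower member was Rpl30 at -1.75, with 4.60 and 5.34 CPM at P8 against 17.2 and 21.2 CPM at P2; the P2 means rest on a few cells, since the median P2 cone had 3.09 and 3.75 CPM and the highest 260 and 252 CPM. The next lowest were Rps19 at -1.55 and Rpl27a at -1.29.

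The step from P8 to P21 held most of the decrease. In P21 over P8, 0 of 62 members were higher (4.71% of genes) and 20 were lower (7.67% of genes), 13 of the large and 7 of the small subunit. The member median was -1.12, against -0.21 over all genes, and 60 of 62 ratios were negative, those of Rpl27a and Rpl30 being the exceptions. Rpl22, whose loss mice tolerate because a paralog can replace it, was lowest at -2.88, with 1.22 and 16.1 CPM at P21 against 34.1 and 57.3 CPM at P8. Rps19 stood at -2.09, Rpl32 at -2.03, Rps15 at -1.82 and Rpl13 at -1.71. Rps15, a small subunit protein near the decoding centre, averaged 13.5 and 12.6 CPM at P21 against 61.9 and 38 CPM at P8. It passed 1 CPM in 14 and 12 of 24 cones at P21, against 22 and 18 of 24 at P8. Rpl13 averaged 15.9 and 15.3 CPM at P21, against 67.3 and 42 CPM at P8.

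The stalk of the large subunit, which recruits elongation factors, took part in this step. Rplp1 averaged 6.70 and 5.99 CPM at P21, against 23.8 and 17.9 CPM at P8, a ratio of -1.56. Its partner Rplp2 averaged 11.7 and 11 CPM at P21, against 39.9 and 24.5 CPM at P8, a ratio of -1.39. Rplp0, the base that holds both, averaged 86.0 and 66.0 CPM at P21, against 151 and 130 CPM at P8, and at -0.89 did not reach 2-fold. Rps6, the small subunit protein phosphorylated downstream of mTOR, was nearer its earlier level at -0.48, with 82.4 and 54.9 CPM at P21 against 104 and 85.7 CPM at P8. Scaling by trimmed means (TMM) left 13 of the 20 lower members past 2-fold, with a member median of -0.97 against -0.06 over all genes. Of 9722 genes, 595 were then lower.

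Between P21 and P60 the members moved little. In P60 over P21, 2 of 55 members were higher (4.26% of genes) and 0 were lower (4.54% of genes), with a median of 0.35 against 0.03. Rpl23 stood at 1.18, with 23.5 and 36.8 CPM at P60 against 9.96 and 15.4 CPM at P21, and Rps19 at 1.09. Rpl22 had a larger mean ratio, 2.7, but passed 2-fold in superior cones only. The lowest were Rpl27a (-1.58), Rpl30 (-1.17) and Rpl34 (-0.84), none past 2-fold in both zones. Against the start of the series, P60 over P2 held 0 of 67 higher members (7.43% of genes) and 17 lower ones (16.6% of genes), with a median of -0.89 against -0.41 over all genes. The lowest were Rps19 (-2.55), Rpl30 (-2.53), Rpl34 (-2.45), Rpl32 (-2.08), Rps27l (-2.07) and Rpl37a (-1.91). The limma fit over these 4 groups called 0 members (4.37% of genes). At an unadjusted p below 0.05 it held 8 members, all lower, against 2564 of 9992 genes in either direction. With TMM scaling, which moved the median of all genes to -0.06, 5 were at least 2-fold lower and the member median was -0.55. Of 9992 genes, 1100 were then lower.

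The P60 and 2m control collections are of like age by their labels, but not of like level in these genes. In 2m over P60, 27 of 74 members were at least 2-fold higher (6.14% of genes) and 1 was lower (6.17% of genes). Of the 27, 15 belonged to the large and 12 to the small subunit. The median was 0.80 over members and -0.08 over all genes. Without the stretches of 2m control cells that stand apart, 29 members were higher and 1 lower, with a median of 0.95. Of 9641 genes, 592 were then higher and 576 lower. The libraries of the 2m collection were also deeper, as given above, and what else differed between the collections was not tested.

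Rpsa, a small subunit protein also known as the laminin receptor, had the largest ratio at 5.38. It averaged 63.0 and 58.1 CPM in 2m cones, against 0.482 and 0.468 CPM in P60 cones. In 2m cones it passed 1 CPM in 32 of 53 superior and 27 of 50 inferior cells, with medians of 41.8 and 19.8 CPM and highest cells of 433 and 265 CPM. In P60 cones it passed 1 CPM in 6 of 26 and 5 of 21 cells, and the highest held 2.06 and 3.15 CPM. Its level was also low at P2 (2.03 and 3.10 CPM), P8 (1.07 and 0.391 CPM) and P21 (0.560 and 0.446 CPM), so among control cones only the 2m collection held cells above 10 CPM of Rpsa, apart from 1 inferior P2 cell at 53.2 CPM.

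Rps10 (3.67) averaged 12.8 and 18.2 CPM in 2m cones, against 0.284 and 0.279 CPM in P60 cones. Rps25 (3.46), a protein that some viral messages need to recruit the ribosome, averaged 23.1 and 22.8 CPM, against 1.74 and 0.729 CPM. Rpl9 (3.36) averaged 44.7 and 43.9 CPM, against 3.74 and 3.12 CPM. Rps3a1 (3.30) averaged 53.1 and 71.4 CPM in 2m cones and 4.09 and 6.86 CPM in P60 cones. Rpl10 (3.03) averaged 24 and 19.7 CPM in 2m cones and 1.6 and 1.99 CPM in P60 cones. Many of these members were low at P60: 12 of the 27 were under 5 CPM in both P60 groups, against 1 of the other 47. The filter of 5 CPM is taken over the P60 and 2m groups together. A member that low at P60 was therefore compared only if its 2m mean was high, so this contrast was in part fixed in advance. The number of pseudogenes that RefSeq names for a member had a median of 2 both among the 27 and among the other 47 members, with a Spearman rho of 0.11 to the ratio across 74 genes, which are not independent replicates.

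Rplp0 was among the 27 and abundant in both collections. It averaged 228 ± 133 and 232 ± 171 CPM in 2m cones (SD over 53 and 50 cells), against 74.4 ± 54.5 and 71.3 ± 44.1 CPM in P60 cones (SD over 26 and 21 cells). The highest P60 cones held 209 and 167 CPM, close to the 2m medians of 209 and 202 CPM. The one lower member was Rpl36al, a relative of Rpl36a, at -1.21, with 10.6 and 9.42 CPM in 2m cones against 25.3 and 23.7 CPM in P60 cones. Rpl12, at the base of the stalk, stood next at -1.20 and Rps16 at -1.20, each past 2-fold in 1 zone only.

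**Figure D2:**
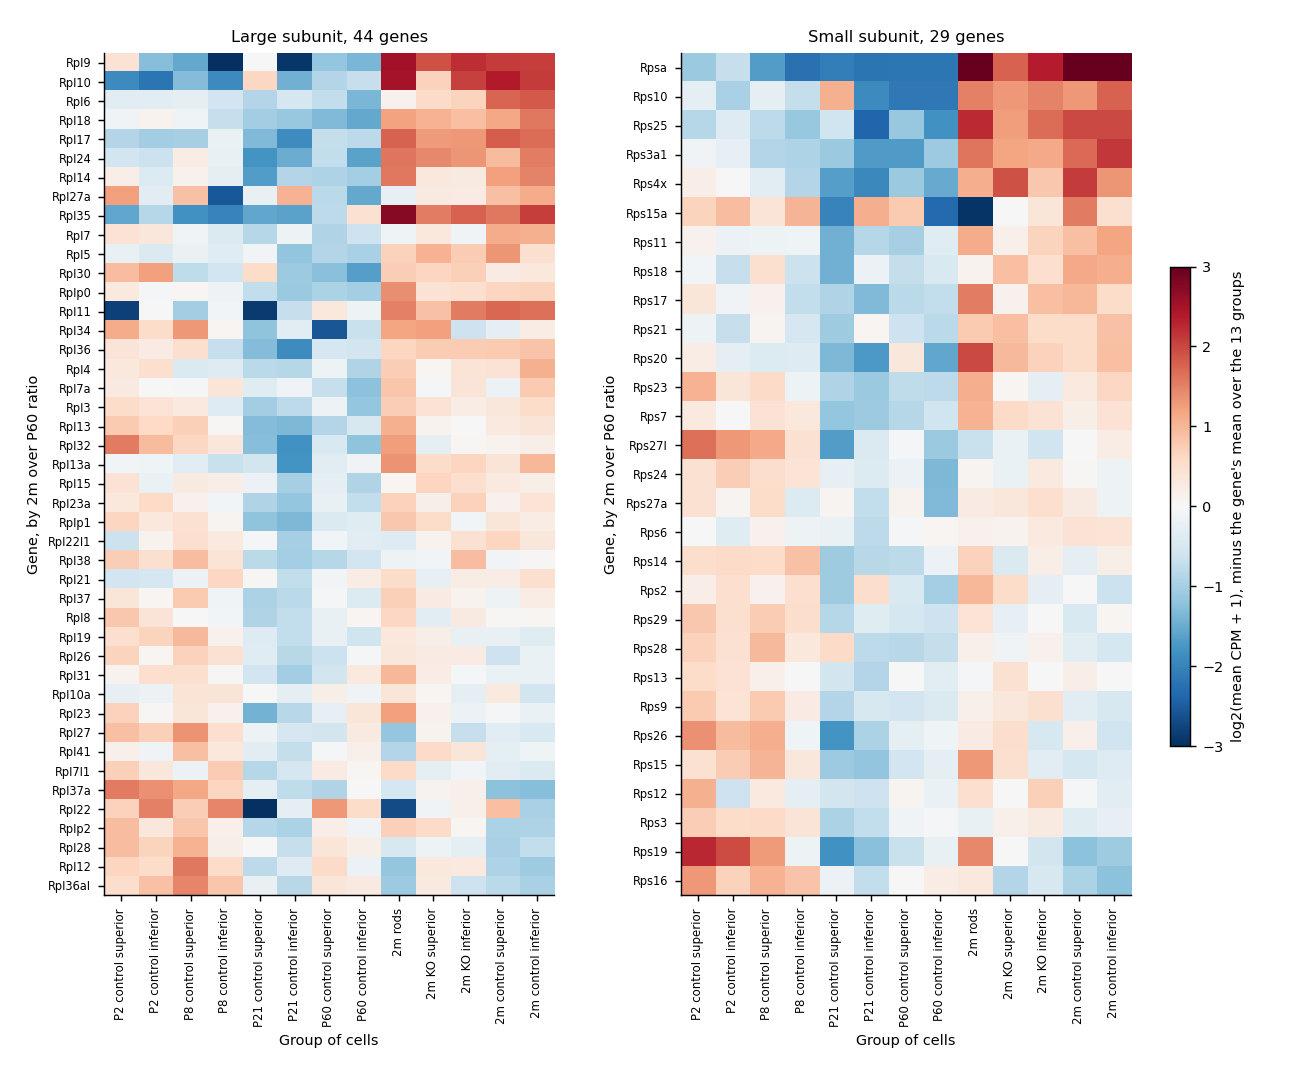
Colour gives the log2 mean CPM (plus 1) of each gene in each of the 13 groups minus that gene's mean over the groups, for genes of the large subunit (left) and of the small subunit (right), cut at 3 on either side; genes run from the highest to the lowest ratio of 2m over P60. Genes at the top, such as Rpsa and Rps3a1, are low at P21 and P60 and high in all 2m groups, and genes at the bottom, such as Rps19 and Rpl37a, are highest at P2.

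Counting both adult collections against P2, so that a member had to pass in 4 of 4 pairs of groups, 1 of 75 members was higher (4.51% of genes) and 6 were lower (9.71% of genes). The member median was -0.52 and that of all genes -0.44. Rpl10 was higher at 2.78. Rpl35 (2.04) and Rpl17 (1.47) had the next largest ratios without passing in every pair. The lower members included Rps19 (-2.90), Rpl37a (-2.31), Rps27l (-1.71), Rps26 (-1.38) and Rps28 (-1.18). Rps27l, a relative of Rps27 that p53 induces, averaged 6.85 and 2.76 CPM at P60 and 7.32 and 8.55 CPM at 2m, against 24.9 and 19.1 CPM at P2. A limma fit of adult against P2 and zone over the 6 groups called Rps19 alone (-2.90, SE 0.63, adjusted p = 0.0288), against 7.6% of genes. That fit counted both zones of a collection as samples, and P2 is 1 collection. Its p-value therefore measures no spread between P2 collections. In the limma age fit, with 1 value per collection, Rps19 had an adjusted p of 0.153. The lower count was 1 with TMM scaling, 4 without the stretches of 2m control cells, and 7 without the cell that lacks cone markers. Over all genes the lower counts were 555, 965 and 984 in that order.

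Few members stood past 2-fold between KO and control cones of 2m. In 2m KO over 2m control cones, 2 of 75 members were higher in both zones (4.47% of genes) and 1 was lower (3.65% of genes). The member median was 0.02 and that of all genes 0.06, with 39 members above 0 and 36 below. There is 1 group of cells per genotype and zone, so the count is one of size. A limma fit of genotype and zone over the 4 groups, with 1 residual degree of freedom, called 0 of 75 members (0.0103% of genes). At an unadjusted p below 0.05 it held 3 members, all lower, against 912 of 9752 genes. Without the KO stretches the fit held 7 members at that level, all lower, against 899 genes, and called 0 members.

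Rpl37a was higher at 1.38, with 16 and 16.5 CPM in superior and inferior KO cones against 5.73 and 5.59 CPM in control cones. The highest cells held 124 and 140 CPM in KO cones, against 19.4 and 32.2 CPM in control cones, while the share of cells over 1 CPM was 62.0% and 75% in KO cones against 73.6% and 72.0% in control cones. Rpl12 was higher at 1.30, with 31 and 30.5 CPM in KO cones against 12.6 and 11.3 CPM in control cones. Its median cell was near 0 in every one of these groups (0.111 and 0.168 CPM in KO cones, 0.570 and 0.0451 CPM in control cones). Rplp2 came next at 1.25 and passed 2-fold in superior retina only, with 33 and 23.1 CPM in KO cones against 10.8 and 11.1 CPM in control cones.

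Rpl6, a large subunit protein, was lower at -1.17, with 37 and 39.9 CPM in KO cones against 84.5 and 91.2 CPM in control cones. It passed 1 CPM in 19 of 50 and 20 of 48 KO cones, against 39 of 53 and 33 of 50 control cones, and the median cell held 0.0874 and 0.0864 CPM in KO cones against 71.0 and 61.8 CPM in control cones. Rpsa (-1.15) and Rpl14 (-1.07) followed, each past 2-fold in 1 zone. Rpsa averaged 21.7 and 32.9 CPM in KO cones, against 63.0 and 58.1 CPM in control cones. Rpl14 averaged 30.8 and 29.5 CPM in KO cones, against 59.1 and 70.0 CPM in control cones.

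The stretches of cells decided several of these values. Rpsa averaged 73.6 and 122 CPM in the KO cells of the stretches and 7.04 and 6.41 CPM in the other KO cells. Rpl10 averaged 22 and 71.0 CPM in them and 2.40 and 3.49 CPM in the others. Rps10 averaged 40.8 and 46.2 CPM in them and 5.15 and 5.42 CPM in the others. Rpl12 went the other way, with 10.2 and 25.8 CPM in the stretches and 36.9 and 31.9 CPM in the other KO cells.

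Without the KO stretches, 3 members were higher (Rpl37a 1.45, Rpl12 1.45 and Rplp2 1.4) and 6 were lower: Rpsa (-2.99), Rpl10 (-2.54), Rpl27a (-1.42), Rpl6 (-1.39), Rps10 (-1.37) and Rps3a1 (-1.30). Of 9752 genes, 489 were then higher and 509 lower. The member median was -0.22, against 0.01 over all genes. With the KO stretches alone, 2 were higher (Rps10 1.45 and Rps7 1.24) and 0 lower, against 362 and 954 of 9752 genes. The median was 0.47 against -0.17 over all genes, and 65 of 75 members were above 0. Without the control stretches, Rpl12 (1.35) and Rpl37a (1.23) were higher and Rpsa (-1.29) and Rpl6 (-1.20) lower, with a median of -0.10. Over all genes 406 were then higher and 369 lower. Rpl37a and Rpl12 were thus at least 2-fold higher and Rpl6 lower in both zones, whichever stretch was left out. In the KO stretches alone they did not pass in both zones, with mean ratios of 1.06 (Rpl37a), 0.42 (Rpl12) and -0.62 (Rpl6). The sign of the member median depended on which cells entered.

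Against the P60 controls in place of those of 2m, 21 of 74 members were higher in KO cones (5.99% of genes) and 0 were lower (4.9% of genes), with a median of 0.81 against -0.01 over all genes. The highest were Rpsa (4.23), Rps10 (3.54), Rpl9 (3.33), Rps25 (2.94), Rps4x (2.66) and Rps3a1 (2.56). In 2m over P60 control cones, which is taken over the same P60 groups, these members stood at 5.38, 3.67, 3.36, 3.46, 3.02 and 3.30 in that order. The limma fit over these 4 groups called 0 members (0.605% of genes). At an unadjusted p below 0.05 it held 13 members, all higher, against 1186 of 9755 genes in either direction. The higher count was 14 without the KO stretches, with 1 lower and a median of 0.50, 9 with a pseudocount of 10, and 5 with log2 values averaged over cells, with 1 lower and a median of 0.28. Among the lowest in KO over P60 were Rpl22 (-0.90) and Rps16 (-0.79).

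In KO cones fewer cells showed a given member, except in the stretches. In both zones 57 of the 76 members passed 1 CPM in a smaller share of KO than of 2m control cones (36.2% of genes), and 58 had a read in a smaller share of KO cones after thinning (38.7% of genes). Over members the median share of cells above 1 CPM was 52% and 47.9% in KO cones, against 68.9% and 61.0% in 2m control cones; over all 10390 genes it was 22% and 22.9% in KO cones, against 28.3% and 22% in control cones. The stretches were picked after seeing how many genes and members their cells showed. Shares and spread without them, or in them alone, were therefore in part fixed in advance. Without the stretches of either genotype the medians were 43.6% and 43.2% in KO cones, against 78.3% and 75.7% in control cones. In that setting 74 of 76 members passed in a smaller share of KO cones in both zones (52.6% of genes). In the KO stretches alone the medians were 81.8% and 72.7%. Against the control cones outside the control stretches, 24 members passed in a larger share of them (20.4% of genes) and 11 in a smaller share (30.0% of genes). Against all control cones the counts were 50 (30.5% of genes) and 6 (21.6% of genes). Values were also more uneven over cells in KO cones without the stretches, with a median coefficient of variation of 173% and 177%, against 103% and 104% in control cones. Among abundant members, Rplp0 had 197 ± 264 and 205 ± 174 CPM in all KO cones, with medians of 109 and 153 CPM, against 228 ± 133 and 232 ± 171 CPM in control cones and medians of 209 and 202 CPM (SD over cells). In superior retina 34 of 50 KO cones passed 1 CPM of Rplp0, against 50 of 53 control cones.

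**Figure D3:**
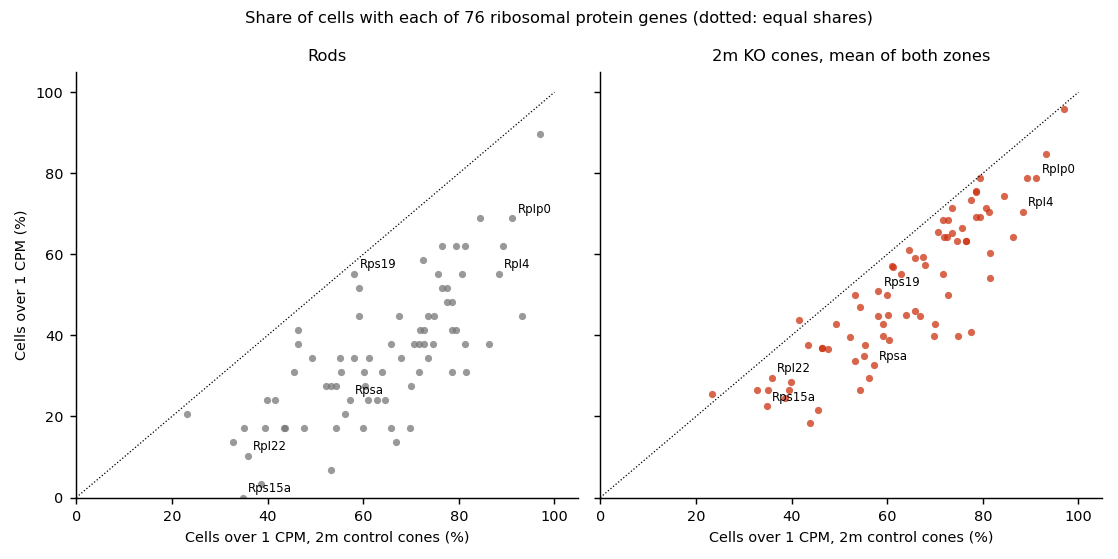
Each point is 1 of the 76 genes, placed by the share of 2m control cones with over 1 CPM (mean of both zones, horizontal) and by the share of rods (left) or of 2m KO cones (mean of both zones, right). Nearly all points lie under the dotted line of equal shares, further under it in rods.

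Rods had most members at a like or higher mean level than 2m control cones, in fewer cells. In rods over control cones, 9 of 75 members were at least 2-fold higher against both zones (8.33% of genes) and 5 were lower (42.1% of genes). The member median was 0.37, and 0.40 over the 74 members without Rps15a, against -0.77 over all genes. The mean was higher in rods than in both control groups for 47 members and lower than in both for 21. The same count is not given over all genes. Over all genes the middle 50% of the ratios ran from -3.32 to 0.38. A limma fit over the 3 groups has 1 group of rods, and its 1 residual degree of freedom is the zone difference of the control cones. It measures no spread between samples of rods, so its calls are not given and the ratios are read by size. The count past 2-fold depended on the scale. With TMM scaling the factor was 0.56 in rods and 0.96 and 0.88 in 2m control cones, and the median of all genes moved to -0.09. On that scale 32 members were higher and 2 lower with a median of 1.06, against 1842 and 3252 of 9213 genes. With log2 values averaged over cells, 1 was higher and 34 lower, against 102 and 3802 of 9213 genes. The member median was then -0.99, against -1.08 over all genes.

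Rps19 was the highest at 2.59, with 52.1 CPM in rods against 7.34 and 8.36 CPM in superior and inferior control cones. The lowest, median and highest rod held 0, 5.29 and 204 CPM, and the highest control cones 30.2 and 35.3 CPM. Rps19 passed 1 CPM in 16 of 29 rods, against 33 of 53 and 27 of 50 control cones. Rps15 (1.76) averaged 74.9 CPM in rods, against 20.4 and 22.5 CPM, and its median rod held 0.328 CPM, against 15.5 and 16.2 CPM in the median control cones. Rplp2 (1.66) averaged 36.8 CPM in rods, against 10.8 and 11.1 CPM. Rps16 (1.41) averaged 24.8 CPM in rods and 9.69 and 7.85 CPM in control cones. Rpl23 (1.35) averaged 67.6 CPM in rods and 27.4 and 24.4 CPM in control cones. Rps20 (1.27), Rpl31 (1.19) and Rpl32 (1.10) were also among the 9. For Rps15 the median rod was thus under the median control cone although the mean was higher.

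Rps15a was listed at 0 in all 29 rods, against means of 21.5 and 9.65 CPM in 2m control cones, where it passed 1 CPM in 21 of 53 and 15 of 50 cells and the median cell held 0 and 0.0666 CPM. Rpl22 was lower at -2.64, with 2.31 CPM in rods against 38.2 and 9.84 CPM in control cones, and it passed 1 CPM in 3 rods, against 20 and 17 control cones. Rpl6 (-1.66) averaged 27 CPM in rods, against 84.5 and 91.2 CPM, and passed 1 CPM in 5 rods. Rpl27a stood at -1.25, and Rpl7 at -1.23 with 25.9 CPM in rods against 63.0 and 61.0 CPM. Without the control stretches, 8 members were higher (Rpl32 at 0.88 no longer) and 7 lower, with Rps18 (-1.23) and Rpl22l1 (-1.05) added, and the median was 0.26. Of 9213 genes, 749 were then higher and 3859 lower.

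In terms of cells, 74 of the 76 members passed 1 CPM in a smaller share of rods than of either 2m control group (87.7% of genes), and 70 had a read in a smaller share after thinning (84.9% of genes). Without the control stretches all 76 passed 1 CPM in a smaller share of rods (89.3% of genes). Those stretches were picked on detection too, so this count was in part fixed in advance. The median gene passed 1 CPM in 6.90% of rods, against 28.3% and 22% of control cones, and the median member in 34.5% of rods. The median rod was at 0 CPM for 22 members and under 1 CPM for 61, although the median member passed 1 CPM in more rods than the median gene. The counts of 22 and 61 have no like count over all genes here. Müller glia markers (7 of 9 in the table) summed to 2889 CPM in rods and 376 to 1280 CPM in the cone groups, with Rlbp1 at 867 CPM in rods and 16.5 to 174 CPM in the 2m cone groups; the part of this in the member values was not tested.

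**Figure D4:**
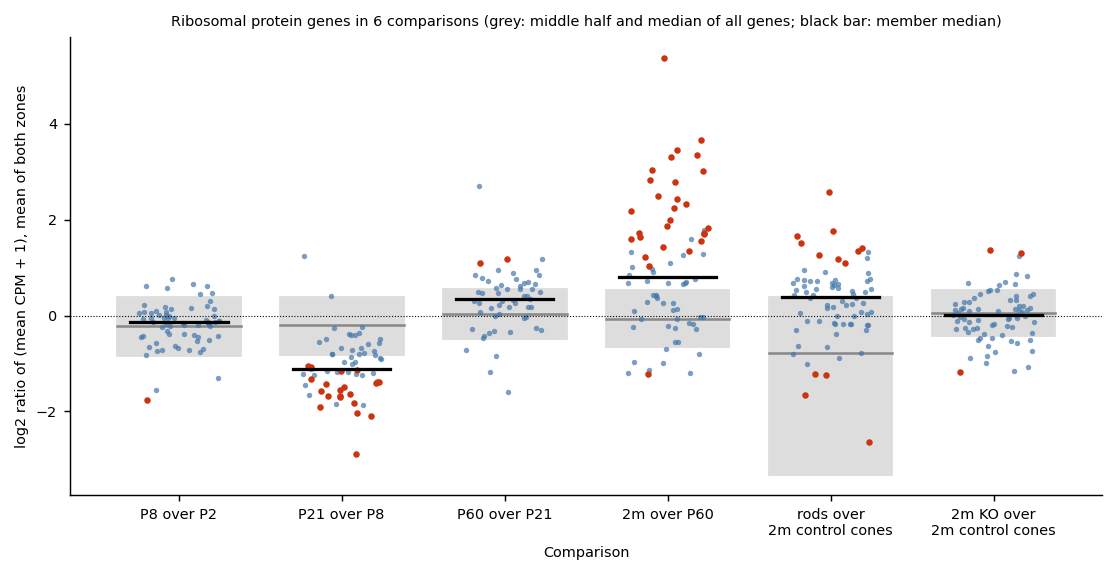
Points are the ribosomal protein genes that passed the filter of 5 CPM in each of 6 comparisons, placed by the log2 ratio of mean CPM plus 1, averaged over both zones; red points passed 2-fold in both zones, black bars are member medians, and grey boxes span the middle 50% of all genes with their median. The members sit below the box's centre in P21 over P8 and above it in 2m over P60 and in rods; Rps15a, listed at 0 in rods, is not drawn there.

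Paralogs within the set moved together in some comparisons and apart in others. Rpl22l1, the paralog that Rpl22 holds down in mice, averaged 7.75 CPM in rods, against 16.9 and 13.4 CPM in 2m control cones, the same direction as Rpl22. At P21 Rpl22 averaged 1.22 CPM in superior and 16.1 CPM in inferior cones and Rpl22l1 10.1 and 4.73 CPM; at P8 Rpl22 averaged 34.1 and 57.3 CPM and Rpl22l1 15.2 and 12.9 CPM. At 2m Rpl22 averaged 38.2 CPM in superior and 9.84 CPM in inferior control cones, with single cells of up to 466 and 111 CPM. Rpl7l1, a relative of Rpl7, averaged 108 CPM in rods, against 57.1 and 53.2 CPM in 2m control cones, while Rpl7 was lower in rods. In 2m over P60, Rpl7 was higher at 1.86 and Rpl7l1 stood at -0.55. Rplp1 and Rplp2 parted at the same step, at 0.69 and -0.99. Rplp1 averaged 30.3 CPM in rods and 25.2 and 15.9 CPM in KO cones, against 22.1 and 19.8 CPM in 2m control cones.

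Over the 13 groups, the members least like the median member in log2 level were Rpl36al (r = 0.05), Rpl28 (r = 0.10) and Rps15a (r = 0.11), a description over groups that share collections. Rpl28 averaged 16.8 CPM in rods and 21.6 and 19.5 CPM in KO cones, against 11.7 and 13.9 CPM in 2m control cones, and 46.2 and 39 CPM at P2.

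The genes around the ribosome, from lists of 3 ribosomal genes outside the rule, 15 elongation and related genes, 30 nucleolar assembly genes, 77 mitochondrial ribosomal proteins and 9 regulators, gave 0 calls in the zone and age fits. In KO over 2m control cones, Polr1a, the large subunit of RNA polymerase I, Mrps26 and Eif4ebp1 were at least 2-fold higher (4.47% of genes) and Mrps9 and Rptor lower (3.65% of genes), and 0 of the 3 ribosomal and 0 of the 15 elongation genes passed. In 2m over P60, 3 of the 15 elongation genes (Eef1a1, Eef1d and Hnrnpa1) were higher (6.14% of genes), with a list median of 0.71. The nucleolar list had 4 higher and 1 lower gene of 30 there, with a median of 0.09. The medians were -0.67 over the 3 ribosomal genes, -0.12 over the mitochondrial ribosomal list and 0.36 over regulators, against -0.08 over all genes. In rods over 2m control cones, Fau and Eef2 were higher, and 5 elongation genes (Btf3, Eef1g, Eif3e, Eif3l and Hnrnpa1) were lower. Over all genes 8.33% were higher and 42.1% lower in rods, with a median of -0.77. The nucleolar list had 2 higher and 9 lower of 28 genes in rods with a median of -0.64, and the mitochondrial ribosomal list 7 higher and 17 lower with a median of -0.05, against 0.37 for the cytosolic members. Among regulators Mtor and Yy1 were higher and Gabpa, Larp1 and Rptor lower in rods.

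Deposited region lists were set against the genes. Regions bound by the receptor came from retina of embryonic day 18, with ThrbHAB;BirA samples set against BirA alone (2 each; 4590 regions). Open chromatin came from purified P30 cone nuclei, Trb2Cre-KO:Sun1-gfp and Trb2Cre-het:Sun1-gfp (2 each; 5049 regions named induced and 4072 named suppressed). A receptor-bound region lay within 1 kb of 1 of the 76 members (1.32%), against 15.5% of 10140 placed genes. That member was Rpl27, on chromosome 11 from 101442245 to 101445596, with a region from 101444872 to 101445171 inside the gene (GRCm38). Within 50 kb there were 35 members (46.1%), against 39.1% of genes. Induced regions lay within 1 kb of 0 members (12.5% of genes) and within 50 kb of 30 (39.5%, against 35.5% of genes). Suppressed regions lay within 1 kb of 0 members (6.33% of genes) and within 50 kb of 3 (Rpl10, Rps7 and Rps13; 3.95%, against 13.2% of genes). Member intervals were shorter than the median gene, as given above, and the part of that in these shares was not tested. Of the members past 2-fold in KO over 2m control cones (Rpl37a, Rpl12 and Rpl6), Rpl37a alone had a receptor-bound region within 50 kb, against 39.1% of genes.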

How the data were processed

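Each RNA library was made from 1 cell with SMART-Seq v4 and ThruPLEX, per the labels' protocols. The submitters' processing notes name bcl2fastq 2, STAR 2.7.3a, MACS2 2.2.7.1 and the build GRCm38/mm10. How reads were counted (tool, annotation, strand, reads that match several copies) and how genes were selected for the table is not given in the sources used here. The authors deposited CPM for 10390 genes in 430 libraries; columns summed to 80.0% to 93.0% of the full CPM scale and no gene had a maximum under 34.4 CPM. The deposited receptor-bound list carries a p-value for each region, which was not used; regions were taken by position only.

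Whole reads were recovered from the CPM steps (100% of values within 0.1 read). Group values are means over cells, compared as log2(mean CPM + 1), which understates changes of low genes, for genes with at least 5 CPM over the groups compared. Zone and age were fitted with limma 3.58.1 across all genes (R 4.3.3; Benjamini-Hochberg adjusted p below 0.05), with edgeR 4.0.16 and DESeq2 1.42.0 on summed recovered reads as alternatives. On those reads edgeR called 0 genes by zone and 2 by age, and DESeq2 237 and 714. KO, rods and single age steps have 1 group per zone a side and were counted past 2-fold. A limma fit over their 3 to 6 groups, with zone as a term except for rods, was added after seeing the data. Those fits counted the superior and inferior groups of a collection as samples, so their p-values measure no spread between animals. With 1 collection a side, except the adult one, they measure no spread between collections either. Scripts ran in Python 3.11.15 and were tested on simulated data. The fits over 3 or 4 groups returned the simulated sizes of change, but under 3 noise models they ranged from no calls to more false calls than the threshold allows, so neither their calls nor their lack of calls are firm.

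The members and lists were chosen with earlier results of these data known. Named were up to 6 members a direction past a test or fold (the 3 largest otherwise), paralogs, Rplp0, Rpsa, Rps6, Rps27a and the 3 members least like the median; naming by level per kb could not be done without transcript lengths. The stretches of cell numbers and the cells low in cone markers were chosen after seeing the data. The stretches were picked on the genes and members detected in their cells. Some genes are not reported here by name or in the heat map of members; they remain in the counts and medians.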

Additional observations from a re-analysis of the deposited data

How the results depend on the processing

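Calls by zone stayed at 0 members under every alternative; the zone median of 0.14 was 0.059 with TMM, 0.25 with averaged logs and 0.054 to 0.18 when one collection was left out. By age, DESeq2 called 1 member higher, against 462 genes, and log2 values averaged over cells gave 4 lower, against 699 genes. The median slope was -0.42 with averaged logs, -0.12 with a pseudocount of 10, -0.051 with TMM, and -0.37 to -0.11 when one collection was left out. For KO cones the count of 3 became 10 with averaged logs (0 higher, 10 lower), 1 with pseudocount 10, 9 at 1.5-fold, 9 without the KO stretches and 21 against P60. Over all genes 64 were higher and 288 lower, then 139 and 153, 993 and 763, 489 and 509, and 584 and 478. The main counts of genes were 436 and 356. The KO member median of 0.02 became 0.075 without the most abundant genes, 0.47 in the KO stretches alone and 0.81 against P60. It turned to -0.028 with TMM, -0.48 with averaged logs, -0.0015 with pseudocount 10, -0.10 and -0.22 without the control or KO stretches, and -0.014 without the cell low in cone markers. For rods the count of 14 became 34 with TMM, 35 with averaged logs, 6 with pseudocount 10 and 27 at 1.5-fold. Over all genes 1842 were higher and 3252 lower, then 102 and 3802, 541 and 2625, and 1331 and 4436. The main counts of genes were 767 and 3875. The member median of 0.37 in rods became 1.06 with TMM, 0.52 without the most abundant genes, 0.27 with pseudocount 10 and 0.26 without the control stretches. It was -0.99 with averaged logs, where Rpl31 (-0.18), Rpl32 (-0.22), Rplp2 (-0.22) and Rps15 (-0.10) also reversed. For both adult collections over P2 the count of 7 became 2 with TMM, 4 without the most abundant genes, 23 with averaged logs, 3 with pseudocount 10 and 15 at 1.5-fold. Over all genes 693 were higher and 555 lower, then 503 and 814, 394 and 1207, 283 and 653, and 706 and 1742. The main counts of genes were 456 and 982. The 20 lower members of P21 over P8 became 37 with averaged logs and at 1.5-fold, 13 with TMM and 7 with pseudocount 10. Lower genes there went from 746 to 1504, 1455, 595 and 382. The 17 lower members of P60 over P2 became 45, 34, 5 and 6 in the same order of settings. Lower genes there went from 1663 to 1621, 2653, 1100 and 1094. The 27 higher members of 2m over P60 became 15 with pseudocount 10, where higher genes went from 592 to 308. The causes were not tested. No paired analysis was possible because cell numbers pair no samples across groups. At the lowest depth, 897893 reads, 1 CPM is under 1 read, so a member at that level can go unseen in a cell. The limma fit of KO cones, which called 0 members, rests on 1 residual degree of freedom. That of adult over P2, which called 1, rests on 3, with P2 as 1 collection. The fit of rods has 1 group of rods and cannot measure a spread between rod samples. On simulated data the calls of the KO and rod fits depended on the noise model.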
